A study of Mesocricetus auratus with 24 samples.

Results

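Sulfatases are enzymes that take sulfate groups off glycans and lipids. The 7 genes described here are Arsb, Galns, Ids and Sgsh, which act on glycosaminoglycans in the lysosome, Arsa, which acts on a lysosomal lipid, and Sulf1 and Sulf2, which act on heparan sulfate outside the cell. They were taken out of 19938 genes measured in the inferior colliculus (IC), the auditory midbrain nucleus in which sound-evoked seizures start. Each gene was read from the probe set with its highest mean signal, and the group was chosen by the level of Arsb, which was higher in naïve GASH/Sal hamsters than in naïve Syrian hamsters in these same data.

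The 24 hamsters, all 16 weeks old, formed 4 groups of 6 arrays. Stimulated GASH/Sal hamsters (GASH:Sal in the labels) belong to a line selectively bred in Salamanca for seizures triggered by sound, and their IC was taken 60 min after loud sound. Naïve GASH/Sal hamsters were of the same line and received no sound. Stimulated Syrian hamsters were control animals taken 60 min after the same sound, and naïve Syrian hamsters were controls without it. The sample titles name only the stimulation. The paper reports that stimulated GASH/Sal animals of its other assays had seizures, and that stimulated Syrian animals had none. Sound and seizure therefore cannot be told apart in the comparisons that hold stimulated GASH/Sal hamsters. The treatment text in the labels can be read as all controls having received sound, and the design text and sample titles, which separate stimulated from unstimulated controls, were followed. The labels describe every array as a separate biological replicate.

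Lysosomal sulfatases become active only after the enzyme encoded by Sumf1 converts a cysteine of their catalytic site to formylglycine. Sulfated glycosaminoglycans are chains on proteoglycans, and chondroitin sulfate proteoglycans build the perineuronal nets that wrap many neurons of the IC. Loss of a lysosomal sulfatase in humans causes storage of its substrate, as in Maroteaux-Lamy disease for Arsb, Hunter disease for Ids and metachromatic leukodystrophy for Arsa.

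Mouse arrays read the hamster RNA, so each gene is compared between groups and no gene's level is set against another's, and a percentile gives only the rank of a mean signal among all genes on the array. Signals are log2 values, on which a difference of 1 is a doubling. Array medians ran from 4.50 to 4.65, and the correlation of any 2 arrays across genes from 0.965 to 0.993. Stimulated Syrian replicate 4 and naïve GASH/Sal replicate 6 stood apart, with mean correlations of 0.969 and 0.972 to the other arrays of their group and label style. The labels name the animals in 2 styles, here A and B, which hold 3 arrays of every group each, and they do not say what a style stands for. The neuronal markers Snap25, Slc17a6 and Gad1 had mean signals of 9.65, 7.97 and 8.34, at percentiles 99.7, 97.7 and 98.7 of all genes. The markers of tissue next to the IC ranged from percentile 19.3 (Ttr) to 53.9 (Aqp1) for the 6 of choroid plexus, with a median of 36.1, and from 20.3 (Gabra6) to 87.1 (Calb1) for the 7 of cerebellum, with a median of 56.1. In bulk tissue, fewer cells of a type and less RNA per cell cannot be told apart.

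Arsb encodes arylsulfatase B, which removes sulfate from the N-acetylgalactosamine units of chondroitin sulfate and dermatan sulfate. Its probe set, 10406663, gave a lowest, median and highest log2 signal of 5.21, 5.34 and 5.54 in stimulated GASH/Sal hamsters, and of 5.13, 5.24 and 5.29 in stimulated Syrian hamsters. In naïve GASH/Sal hamsters the same values were 5.27, 5.52 and 5.69, and in naïve Syrian hamsters 4.97, 5.15 and 5.29. The naïve GASH/Sal arrays were the highest of the 4 groups by their mean and the naïve Syrian arrays the lowest, with the stimulated groups between them.

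**Figure D1:**
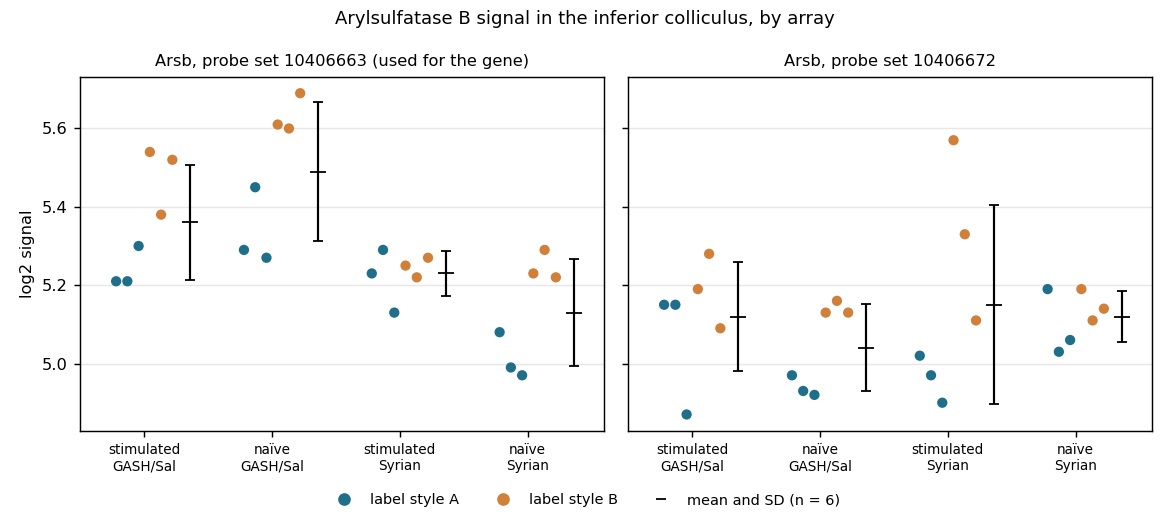
Log2 signal of the 2 Arsb probe sets, one point per array, for each group. Colours give the label style and the bar gives the mean and SD (n = 6 arrays per group). In the left panel the naïve GASH/Sal arrays lie between 5.27 and 5.69 and the naïve Syrian arrays between 4.97 and 5.29, a narrow overlap. The 4 groups overlap in the right panel as well.

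In the naïve animals, whose values chose the gene, Arsb averaged 5.49 ± 0.177 in GASH/Sal and 5.13 ± 0.136 in Syrian hamsters (SD, n = 6 each). The difference was 0.36 on the log2 scale, a 1.28-fold higher signal with a 95% interval of 0.22 to 0.49. It ranked 1 of 19938 genes by p-value in the same contrast that chose Arsb. The rank and the interval are therefore descriptions and not a test. Each of the 6 naïve GASH/Sal arrays lay above the naïve Syrian mean, and the groups overlapped only in that the lowest GASH/Sal array (5.27) was just below the highest Syrian array (5.29). Within label style A the difference was 0.33 and within style B it was 0.39, and within each style the 3 GASH/Sal arrays were all above the 3 Syrian arrays. These are the arrays that chose Arsb, so the values within each style are also descriptions and not a repeat of the result.

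The arrays from stimulated animals were not used to choose the gene. There Arsb averaged 5.36 ± 0.148 in GASH/Sal and 5.23 ± 0.0566 in Syrian hamsters (SD, n = 6 each), a difference of 0.13 (1.09-fold, SE 0.0661, 95% interval -0.01 to 0.26). This difference did not pass limma's test across all genes (adjusted p = 0.901), and 4 of 6 GASH/Sal arrays lay above the Syrian mean. An exact two-sided permutation test that exchanged strain labels within label style gave p = 0.045 (400 arrangements, smallest possible p 0.005), and 0.135 after Benjamini-Hochberg adjustment over the 3 values tested in this way. The difference was 0.02 within style A and 0.24 within style B, so most of it came from the style B arrays.

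Stimulated and naïve animals are set side by side only as a description for Arsb, since the naïve arrays had chosen it. Stimulated minus naïve was -0.13 in GASH/Sal hamsters (interval -0.26 to 0.01) and 0.10 in Syrian hamsters (interval -0.03 to 0.24). In the Syrian animals the difference was 0.21 within style A and 0.00 within style B. The response to sound in GASH/Sal minus that in Syrian hamsters was -0.23 (interval -0.42 to -0.04). Choosing Arsb for a high naïve GASH/Sal signal by itself pushes this value below 0. That the interval leaves out 0 is therefore no evidence of different responses.

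A second Arsb probe set, 10406672, gave a naïve strain difference of the opposite sign, with an interval that held 0. In naïve animals it averaged 5.04 ± 0.111 in GASH/Sal and 5.12 ± 0.0656 in Syrian hamsters (SD, n = 6 each), a difference of -0.08 (interval -0.24 to 0.07). After sound the averages were 5.12 ± 0.14 in GASH/Sal and 5.15 ± 0.254 in Syrian hamsters, a difference of -0.03 (interval -0.19 to 0.12, limma adjusted p = 0.976, exact permutation p = 0.755 and 0.755 after adjustment). Both probe sets were in the middle range of signal, at percentiles 61.2 and 56 of all genes.

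The gap between the probe sets was 0.45 ± 0.0936 in naïve GASH/Sal hamsters, with values of 0.32 to 0.56, and 0.01 ± 0.112 in naïve Syrian hamsters, with values of -0.11 to 0.18 (SD, n = 6 each), so the naïve strains, as a description, did not overlap in it. In stimulated animals the gap was 0.24 ± 0.185 in GASH/Sal and 0.08 ± 0.246 in Syrian hamsters, a strain difference of 0.16 (exact permutation p = 0.25, adjusted over the 3 values 0.375). The sources used here do not place either probe set within the Arsb transcript, and whether sequence differences between the strains or the species affect either set was not tested.

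Galns (probe set 10582403), which removes sulfate from N-acetylgalactosamine and galactose units of chondroitin and keratan sulfate, had overlapping signals in all 4 groups. Its lowest, median and highest values were 5.72, 5.94 and 6.02 in stimulated GASH/Sal and 5.26, 5.93 and 6.07 in stimulated Syrian hamsters. In naïve animals they were 5.85, 5.95 and 6.11 in GASH/Sal and 5.73, 5.98 and 6.08 in Syrian hamsters. The lowest of the 24 arrays was stimulated Syrian replicate 4, at 5.26, which is also one of the arrays that stood apart. The strain difference after sound was 0.11 (interval -0.08 to 0.30, limma adjusted p = 0.916), and without that array it was 0.00918. In Syrian hamsters stimulated minus naïve was -0.15 (interval -0.34 to 0.04, limma adjusted p = 0.794), and -0.0486 without that array. In GASH/Sal hamsters it was -0.05 (interval -0.24 to 0.14), and the naïve strain difference was 0.01.

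Ids (probe set 10604906) encodes iduronate sulfatase, which acts on dermatan and heparan sulfate. It ranged from 5.77 to 6.06 (median 5.84) in stimulated GASH/Sal and from 5.72 to 5.93 (median 5.78) in stimulated Syrian hamsters. In naïve animals it ranged from 5.84 to 5.96 (median 5.90) in GASH/Sal and from 5.75 to 5.91 (median 5.81) in Syrian hamsters. These are narrow, overlapping ranges. The strain differences were 0.07 after sound (interval -0.06 to 0.21, limma adjusted p = 0.92; 0.0411 without stimulated GASH/Sal replicate 4) and 0.07 in naïve animals, where 6 of 6 GASH/Sal arrays lay above the Syrian mean. Stimulated minus naïve was -0.01 for Ids in each strain, with intervals of -0.15 to 0.12 in both.

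Sgsh (probe set 10393648) encodes the heparan N-sulfatase, and its mean signal lay at percentile 46.5 of all genes. It ranged from 4.40 to 4.86 (median 4.76) in stimulated GASH/Sal and from 4.50 to 5.11 (median 4.74) in stimulated Syrian hamsters, with naïve ranges of 4.50 to 4.92 (median 4.73) in GASH/Sal and 4.76 to 5.09 (median 4.81) in Syrian hamsters. The groups overlapped. Its strain difference was negative after sound, at -0.10 (interval -0.30 to 0.11, limma adjusted p = 0.934), and it was also negative in naïve animals, at -0.12. Within label style A the difference after sound was -0.17, and within style B it was -0.02, and without stimulated Syrian replicate 4 it was -0.0296. Stimulated minus naïve was -0.04 in GASH/Sal hamsters (interval -0.25 to 0.17) and -0.07 in Syrian hamsters (interval -0.27 to 0.14).

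Arsa (probe set 10431601) encodes arylsulfatase A, which degrades sulfatide, a sulfated galactolipid of myelin. Its lowest, median and highest signals were 5.22, 5.27 and 5.36 in stimulated GASH/Sal and 4.85, 5.04 and 5.38 in stimulated Syrian hamsters. In naïve animals they were 4.94, 5.33 and 5.55 in GASH/Sal and 5.04, 5.29 and 5.53 in Syrian hamsters. The stimulated GASH/Sal arrays thus lay in a narrow band inside the range of the other groups, and stimulated Syrian hamsters had the lowest mean of the 4 groups.

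After sound Arsa averaged 5.29 ± 0.0534 in GASH/Sal and 5.09 ± 0.216 in Syrian hamsters (SD, n = 6 each), a difference of 0.20 (1.15-fold, interval 0.01 to 0.39). All 6 GASH/Sal arrays were above the Syrian mean, yet the difference did not pass over all genes (limma adjusted p = 0.901). It was 0.16 within style A and 0.24 within style B. In Syrian hamsters stimulated minus naïve was -0.22 (0.858-fold, interval -0.41 to -0.03), with 4 of 6 stimulated arrays below the naïve mean, and this too did not pass (limma adjusted p = 0.726), with -0.06 in style A and -0.38 in style B. In GASH/Sal hamsters it was 0.02 (interval -0.17 to 0.20), and the difference between the responses of the strains, 0.24, was not called (limma adjusted p = 1). In naïve animals the strain difference of Arsa was -0.04 (interval -0.22 to 0.15). Without stimulated Syrian replicate 4, the strain difference after sound was 0.142.

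**Figure D2:**
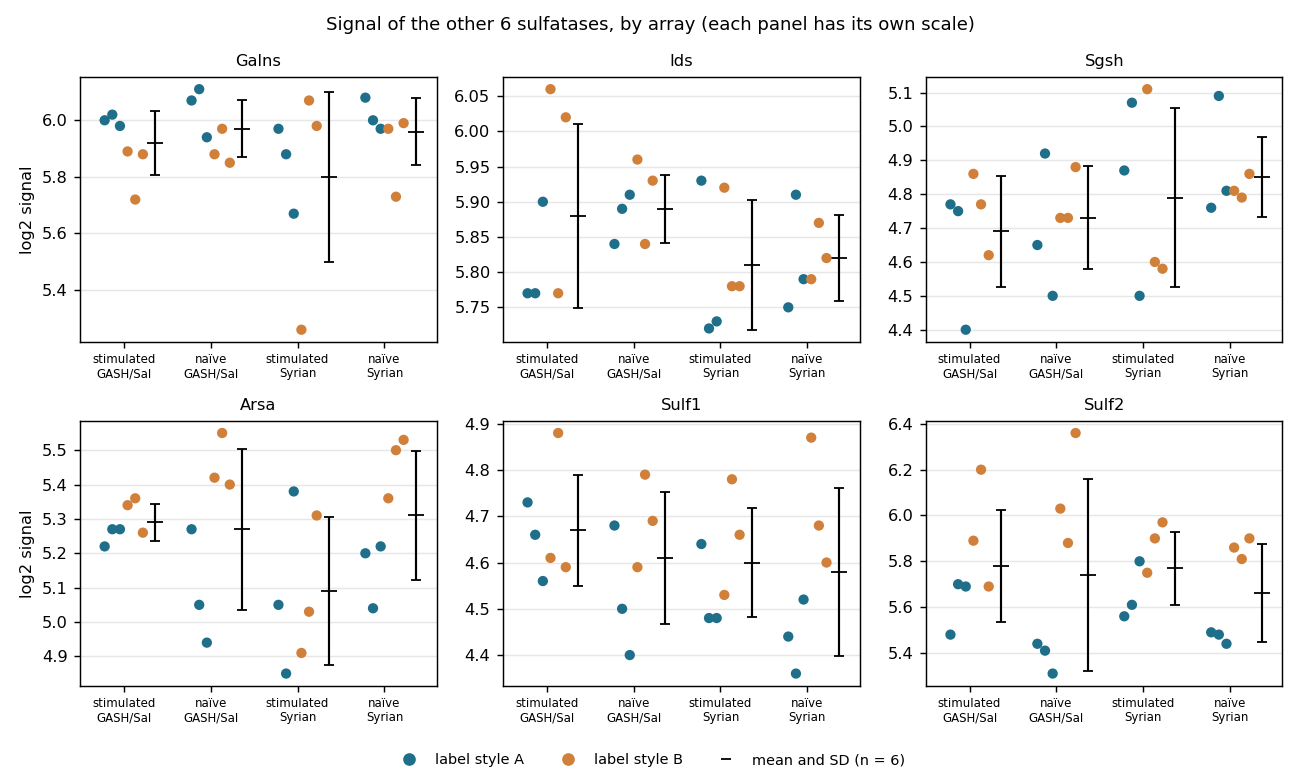
Log2 signal of Galns, Ids, Sgsh, Arsa, Sulf1 and Sulf2, one point per array and group, with the label style as colour and the bar giving the mean and SD (n = 6 arrays per group). The groups overlap in each panel, and the 3 style A arrays of naïve GASH/Sal hamsters lie below the 3 style B arrays for Sulf2.

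Sulf1 (probe set 10344897) and Sulf2 (probe set 10489759) encode secreted endosulfatases that trim sulfate from heparan sulfate chains at the cell surface, and thereby alter the binding of growth factors. Sulf1 ranged from 4.56 to 4.88 (median 4.63) in stimulated GASH/Sal and from 4.48 to 4.78 (median 4.58) in stimulated Syrian hamsters. In naïve animals it ranged from 4.40 to 4.79 (median 4.64) in GASH/Sal and from 4.36 to 4.87 (median 4.56) in Syrian hamsters. It overlapped in all 4 groups, and its strain difference after sound was 0.08 (interval -0.08 to 0.23, limma adjusted p = 0.923), or 0.0472 without stimulated Syrian replicate 4. Stimulated minus naïve was 0.06 in GASH/Sal and 0.02 in Syrian hamsters. Sulf2 had the widest range of the 7 genes over the 24 arrays, with 5.48 to 6.20 (median 5.70) in stimulated GASH/Sal and 5.56 to 5.97 (median 5.77) in stimulated Syrian hamsters. In naïve animals Sulf2 ranged from 5.31 to 6.36 (median 5.66) in GASH/Sal and from 5.44 to 5.90 (median 5.65) in Syrian hamsters. Its strain difference after sound was 0.01 (interval -0.19 to 0.21, limma adjusted p = 0.997), -0.04 within style A and 0.05 within style B. Stimulated minus naïve was 0.04 for Sulf2 in GASH/Sal hamsters, but 0.24 within style A and -0.16 within style B, and it was 0.10 in Syrian hamsters, with 0.19 in style A and 0.02 in style B.

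No sulfatase passed limma's adjusted threshold of 0.05 in any contrast. After sound, 0 of 7 were called between the strains, where 0 of 19938 genes (0%) were called, and 1 of 7 (Arsa) had an unadjusted p under 0.05, against 1080 of all genes (5.42%). Of the 7 genes, 6 lay above 0 in that contrast, with a median of 0.08, though Sulf2, at 0.01, lay below 0 with array weights and within style A. Of all genes, 8772 lay above 0, with a median of -0.01 (10780 and 0.01 with median centring). For sound in GASH/Sal hamsters 0 of 7 were called (0% of all genes), 0 of the 6 genes other than Arsb had an unadjusted p under 0.05 (889 of all genes, 4.46%), and the median was -0.01. For sound in Syrian hamsters the counts were 0 of 7 (0% of all genes) and 1 of 6 (Arsa; 1323 of all genes, 6.64%), with a median of -0.01. For the difference between the responses they were 0 of 7 (0% of all genes) and 0 of 6 (734 of all genes, 3.68%), with a median of 0.02. In naïve animals, where the group was chosen, 0 of 7 and 0% of all genes were called. The widest 95% interval of a strain or sound difference reached 0.21 to either side, so smaller differences could not be told from 0 for the most variable gene. These intervals are not adjusted over all genes, and a larger difference need not be called. Arsa, at -0.22 for sound in Syrian hamsters, was not (limma adjusted p = 0.726).

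**Figure D3:**
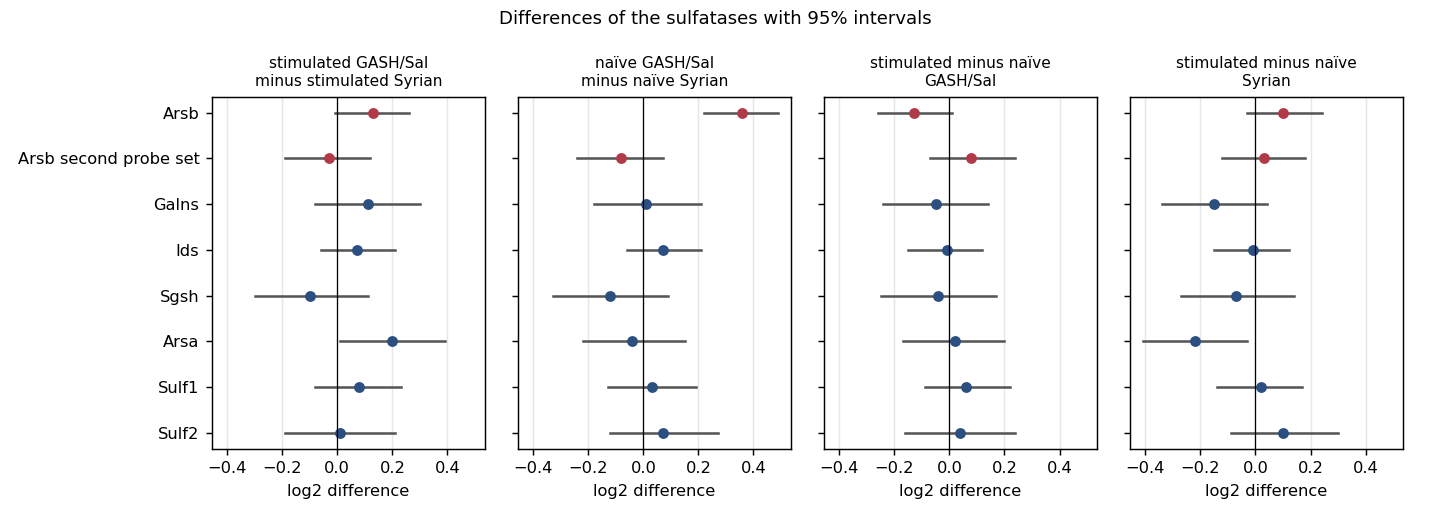
Log2 differences (points) with 95% intervals (lines) of the 7 sulfatases and the second Arsb probe set in 4 comparisons. Arsb lies at 0.36 in the naïve strain comparison, which chose it, and at 0.13 after sound, while Arsa lies at 0.20 after sound and at -0.22 for sound in Syrian hamsters.

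The label styles were compared after the data had been seen, as a technical grouping that each of the 4 groups holds in equal numbers. Sulf2 was 0.40 higher in style B than in style A (1.32-fold, limma adjusted p = 0.000307) and Arsb was 0.20 higher (1.15-fold, limma adjusted p = 0.00682), so 2 of 7 were called, where 6.89% of all genes were. Arsa and Sulf1 were 0.18 and 0.15 higher in style B and were not called (limma adjusted p = 0.0862 and 0.0927), and Galns differed by -0.13 (limma adjusted p = 0.297). Ids and Sgsh differed by 0.05 and 0.02. The group comparisons above all carry the style as a term.

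Genes of the same pathways were described through 9 lists of 123 genes, of which 115 were measured. None of the 115 passed the adjusted threshold in any contrast, and 7 of them (6.09%) had an unadjusted p under 0.05 between the stimulated strains, against 5.42% of all genes. For the response to sound, 2 such genes (1.74%, against 4.46% of all genes) were counted in GASH/Sal hamsters and 4 (3.48%, against 6.64%) in Syrian hamsters. For the difference between the responses there were 6 (5.22%, against 3.68%). In the list of other sulfatases and their activation, the difference between stimulated GASH/Sal and stimulated Syrian hamsters was -0.19 for Arsk (limma adjusted p = 0.901; -0.00588 within style A, -0.376 within style B, and -0.116 without stimulated GASH/Sal replicate 4) and -0.09 for Arsi. The mean signal of Arsk was low, at percentile 9.54 of all genes. Sumf1, which activates the sulfatases, differed by 0.07 and its paralog Sumf2 by 0.06. Of the hydrolases that act with them in the lysosome, Glb1, the beta-galactosidase, differed by -0.17 (limma adjusted p = 0.896) and Ctsa, which protects it, by 0.14. None of these passed.

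In chondroitin and dermatan sulfate synthesis, Ust, an iduronate sulfotransferase, differed by 0.23 between the stimulated strains (limma adjusted p = 0.901) and Chst7, a sulfotransferase, by -0.15 (-0.36 within style A and 0.064 within style B, and -0.0738 without stimulated GASH/Sal replicate 3). Among heparan sulfate genes, the sulfotransferases Ndst3 and Hs6st3 differed by 0.18 and 0.17 (limma adjusted p = 0.901 each), and the linker genes B3galt6 and B4galt7 by -0.16 and -0.15. The mean signal of B3galt6 was low, at percentile 7.8 of all genes. Of the linker and sulfate supply list, 8 of 10 genes lay below 0 (6 with median centring), with a median of -0.06. Without stimulated Syrian replicate 4 the differences were -0.0486 for B3galt6, -0.0946 for B4galt7, -0.0404 for Arsi and 0.0884 for Ctsa, and B3galt6 differed by -0.0337 within style A and by -0.281 within style B. No gene of these lists was called. Among proteoglycans and net components, Vcan, the core protein versican, differed by 0.24 and Tnc, tenascin C, by -0.22 (limma adjusted p = 0.896 each). The difference of Vcan was 0.00469 within style A and 0.47 within style B. In GASH/Sal hamsters Vcan averaged 4.57 after sound and 4.26 in naïve animals, a difference of 0.31 that did not pass (limma adjusted p = 0.999), where Syrian hamsters gave -0.02. Agrn, agrin, differed by 0.18 and Gpc1, a glypican, by -0.17. Npc1, a lysosomal cholesterol exporter, differed by 0.19 and Ctsl, a lysosomal protease, by 0.16.

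The sulfatide list holds the genes that make and handle the substrate of Arsa, and all 6 of its genes lay above 0 between the stimulated strains, with a median of 0.08. Of all genes, 44% lay above 0 in that comparison and 45.8% between the naïve strains. Apart from Ugt8a and Fa2h, the genes of the list lay between 0.01 and 0.10 after sound. Between the naïve strains 4 of the 6 lay above 0, with a median of 0.07. Ugt8a, which makes the galactolipid that is then sulfated, averaged 7.33 ± 0.142 in stimulated GASH/Sal and 6.97 ± 0.2 in stimulated Syrian hamsters (SD, n = 6 each), a difference of 0.36 (limma adjusted p = 0.896). Fa2h, the fatty acid hydroxylase of myelin lipids, averaged 6.16 ± 0.232 in stimulated GASH/Sal and 5.83 ± 0.132 in stimulated Syrian hamsters, a difference of 0.33 (limma adjusted p = 0.887). Neither passed over all genes. Both differences were larger in label style B (0.56 and 0.54) than in style A (0.16 and 0.12). Markers of oligodendrocytes, the myelin-forming cells, averaged 6.35 (range over arrays 6.24 to 6.44) in stimulated GASH/Sal, 6.24 (6.07 to 6.43) in naïve GASH/Sal, 6.22 (6.11 to 6.39) in stimulated Syrian and 6.14 (5.99 to 6.25) in naïve Syrian hamsters. After sound, 6 of the 6 measured oligodendrocyte markers lay above 0 between the strains, with a median of 0.11. Between the naïve strains 3 lay above 0 and 3 below, with a median of 0.04. Neuron markers averaged 8.15 (8.05 to 8.28) in stimulated GASH/Sal, 8.15 (7.92 to 8.39) in naïve GASH/Sal, 8.09 (8.05 to 8.12) in stimulated Syrian and 8.09 (7.98 to 8.18) in naïve Syrian hamsters. Between the strains, 6 of the 8 neuron markers lay above 0 after sound, with a median of 0.10, and 4 of 8 in naïve animals, with a median of 0.01. A separate list held 4 markers of glutamatergic and GABAergic neurons. Of these, 2 lay above 0 after sound, with a median of 0.01, and 2 in naïve animals, with a median of 0.05. Over the 24 arrays, with each style set to its own mean, the oligodendrocyte mean correlated at 0.52 with Arsb and at -0.03 with Arsa. The mean of the 8 neuron markers correlated at 0.44 with Arsb and at 0.43 with Arsa. For the 4 glutamatergic and GABAergic markers the values were -0.04 with Arsb and 0.22 with Arsa. These arrays include the naïve ones that chose Arsb. The part of either cell type in the values above was not tested.

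**Figure D4:**
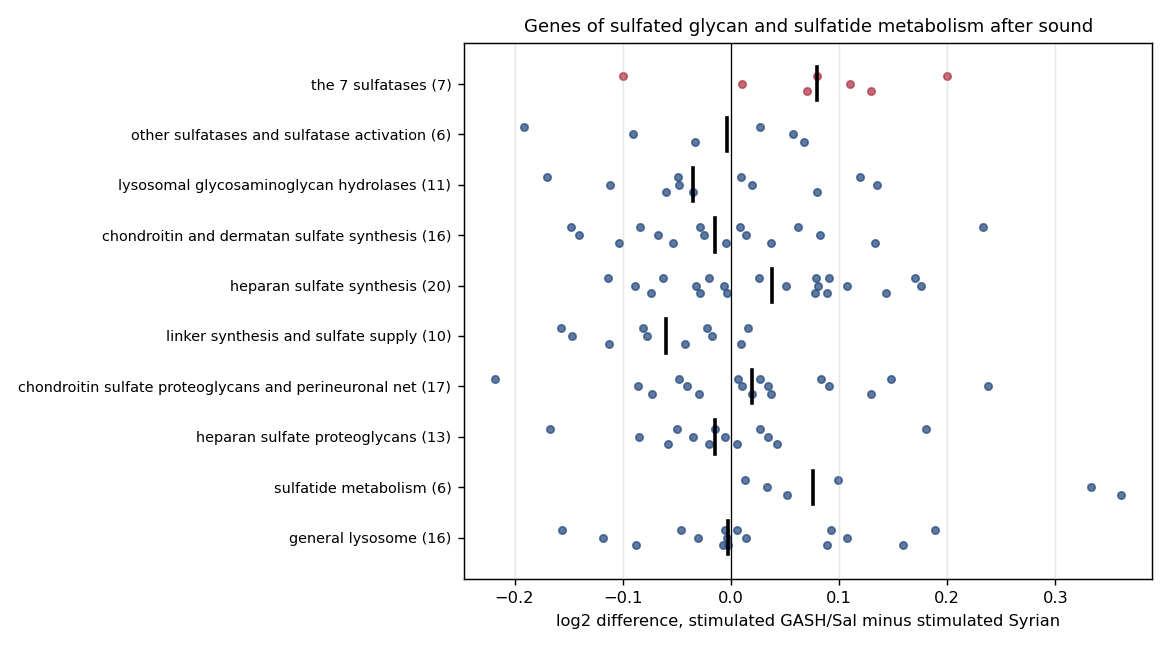
Log2 differences between stimulated GASH/Sal and stimulated Syrian hamsters for the 7 sulfatases and for each gene of 9 pathway lists (points, number of genes in brackets), with the median as a vertical bar. The sulfatide list has all 6 of its genes above 0, where 44% of all genes lay above 0. Ugt8a at 0.36 and Fa2h at 0.33 lie on the right, its other genes lie between 0.01 and 0.10, and the other lists lie on both sides of 0.

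The correlations of Arsb with the other sulfatases over arrays were at most 0.48. With each label style set to its own mean, Arsb correlated at 0.48 with Ids, 0.24 with Sulf2, 0.13 with Galns, 0.12 with Arsa, 0.05 with Sulf1 and -0.10 with Sgsh over the 24 arrays. The 21 pairs of genes ranged from -0.43 (Ids with Sulf1) to 0.48 (Arsb with Ids). The 5 genes most like Arsb among those at or above the median signal were Gstp1 at 0.79, Cpsf6 at 0.76, Agap1 and Ptpa at 0.72 and Arl15 at 0.70, values that include the naïve strain difference by which Arsb was chosen.

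The genes on either side of Arsb in the hamster annotation had naïve strain differences of -0.09 to 0.01. Ap3b1, Scamp1 and Lhfpl2 before it differed between the naïve strains by 0.01, 0.00 and -0.09, and Dmgdh, Bhmt and Jmy after it by -0.07, -0.01 and -0.03, where Arsb differed by 0.36. Between the stimulated strains they differed by 0.05, 0.06 and -0.08 before it, and by -0.10, -0.28 and -0.08 after it. Bhmt, betaine-homocysteine methyltransferase, thus had the largest absolute strain difference after sound among these 7 genes, at 4.90 in GASH/Sal and 5.18 in Syrian hamsters.

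**Figure D5:**
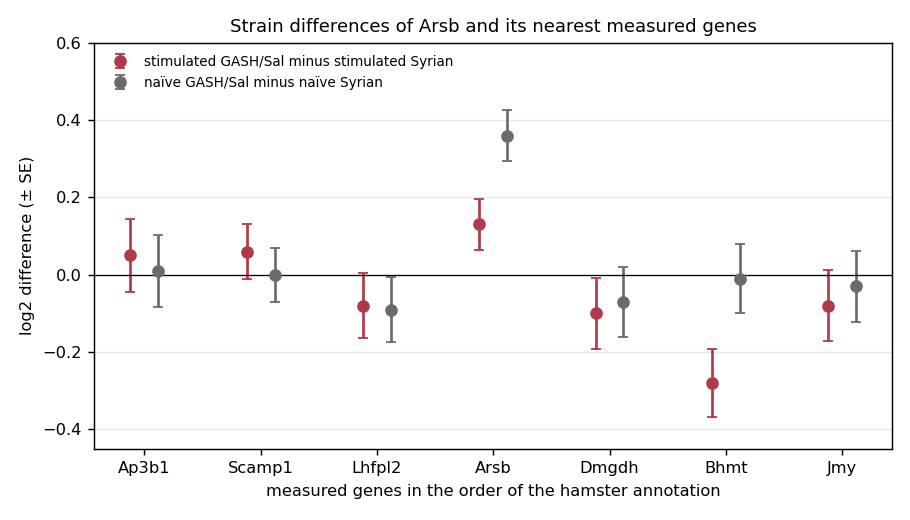
Strain differences in log2 signal, with SE, of Arsb and the 3 measured genes on each side of it in the order of the hamster annotation, for stimulated and naïve animals. Arsb lies at 0.36 in naïve animals, its 6 neighbours between -0.09 and 0.01, and Bhmt lies at -0.28 after sound.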

How the data were processed

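The deposited values are log2 probe set signals from mouse whole-transcript arrays hybridised with hamster IC RNA, which the authors processed with RMA (background correction, normalisation and probe summary), per the submitters' processing notes and without a version. The table held 35556 rows, of which 21789 carried 1 gene symbol in the platform annotation, 1621 several and 12146 none. Rows with 1 symbol were used, with the highest-mean row for each of the 999 genes with more than 1, which left 19938 genes. The annotation is dated and symbols can be old. All per-sample columns were used (0 unused).

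Differences were fitted with limma (version 3.58.1, R version 4.3.3; lmFit and eBayes at defaults) on all 24 arrays, with the 4 groups and the label style as terms, which left 19 residual degrees of freedom. Tests were two-sided, with Benjamini-Hochberg adjustment over all genes and a threshold of 0.05. The limma step was tested on simulated data. The number of arrays, not a read depth, limits the precision.

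The genes, lists and named genes were chosen with earlier results of these data known. The naïve strain contrast chose Arsb, so no p-value is printed for it, nor for any contrast of Arsb with naïve arrays. Gene ranks and the count of calls in the naïve strain contrast are descriptions. Named genes were the 7 sulfatases, the 2 genes of each pathway list with the largest absolute difference between stimulated strains, the 3 measured genes on each side of Arsb and the 5 most like it. Sumf1, Sumf2, Rasgrf2 and the single markers of neurons, choroid plexus and cerebellum were named after their values were seen. Of the tested symbols, 14106 (70.7%) were found in the hamster annotation (assembly BCM_Maur_2.0), which was used for names and gene order only. Alternatives were array weights, quantile normalisation, median centring, averaging the probe sets of a gene, testing every probe set, dropping genes under the median signal, robust eBayes with a trend, a replicate block, no style term, each style by itself, only the groups compared, and leaving out each array. The second Arsb probe set, leaving out the 2 arrays that stood apart and the comparison of label styles were added after seeing the data.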

Additional observations from a re-analysis of the deposited data

Results flagged for a closer look

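Of the 32 groups of 6 values looked at (the 7 sulfatases and the second Arsb probe set in 4 groups), 2 held an array far from its group by Dixon's criterion, which chance passes in about 5% of groups. For Galns, naïve Syrian replicate 5 was the lowest of its group at 5.73, with the others between 5.97 and 6.08. For Sgsh, naïve Syrian replicate 2 was the highest of its group at 5.09, with the others between 4.76 and 4.86. Leaving either array out called no sulfatase by sound or in the difference of responses, and calls between the naïve strains were not counted without it.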

How the results depend on the processing

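No sulfatase and no pathway gene was called between the stimulated strains, by sound in either strain or in the difference of responses under any of up to 14 alternatives, nor without any single array. Calls between the naïve strains, which chose Arsb, were not counted under the alternatives. After sound, the difference of Arsb stayed above 0 under each alternative on its main probe set, at 0.104 to 0.161 with single arrays left out (0.335 to 0.382 for its naïve difference), but was -0.0305 on the second probe set. The naïve difference was 0.139 with the mean of the probe sets and -0.0806 on the second. The replicate numbers did not pair the samples (correlations of same-numbered deviations from -0.159 to 0.316), and the replicate block gave 0.128 for Arsb after sound and changed no call. Between label styles, 2 sulfatases were called, and 3 without stimulated Syrian replicate 4.

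Small, uncalled differences changed sign, and the cause was not tested. Style A alone gave -0.0353 for Sulf2 and 0.02 for Arsi after sound, and -0.042 for Ids and 0.051 for Sulf2 in the difference of responses. Style B alone gave -0.136 for Arsa, 0.0423 for Ids and -0.161 for Sulf2 for sound in GASH/Sal, -0.0603 for Sulf1 for sound in Syrian hamsters and 0.064 for Chst7 after sound. The Ids difference of responses was -0.00712 with median centring and -0.0233 with array weights, which gave -0.0174 for Sulf2 after sound. Without the 2 arrays that stood apart, Sulf2 after sound was -0.0322 and the Galns difference of responses -0.0209.

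With single arrays left out, for sound in GASH/Sal, Arsa ranged from -0.0351 to 0.0549, Ids from -0.0435 to 0.0165, Sgsh from -0.0886 to 0.0181 and Sulf2 from -0.00823 to 0.129. For sound in Syrian hamsters, Ids ranged from -0.0433 to 0.0121 and Sulf1 from -0.013 to 0.0617. Sulf2 after sound ranged from -0.0382 to 0.0698. In the difference of responses, Galns ranged from -0.00355 to 0.167, Ids from -0.0312 to 0.0314, Sgsh from -0.0332 to 0.09 and Sulf2 from -0.112 to 0.0248. The median filter removed Sgsh and Sulf1, which lie below it.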

Other observations

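The 3 genes ranked first by p-value between the naïve strains were Arsb, Rasgrf2, a Ras exchange factor of neurons, and Arl15, a small GTPase. Rasgrf2 was 0.48 higher in naïve GASH/Sal hamsters (6.28 to 6.36 there and 5.67 to 6.03 in naïve Syrian hamsters), and Arl15 was 0.50 higher (5.59 to 6.01 there and 5.16 to 5.45 in naïve Syrian hamsters). Between the stimulated strains, Arsb, Rasgrf2 and Arl15 differed by 0.13, 0.23 and 0.29, with limma adjusted p-values of 0.901, 0.896 and 0.887. All 3 lie on one stretch of the hamster annotation, taken from gene order because no chromosome was used, which holds 165 of the 14106 tested genes found in that annotation, with 14 measured genes between Arsb and Rasgrf2 and 95 between Arsb and Arl15. Of the 20 genes ranked first, these 3 lay on that stretch, which holds 0.828% of all 19938 tested genes. The stretch was defined as the one that holds Arsb, so Arsb lies on it by definition. These genes were chosen after their values were seen, and nothing was tested about their position.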
